A study of Mus musculus with 6 samples.

Results

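The respiratory chain of heart muscle cells was described here through 45 of its nuclear genes. They were taken by name from the 46078 gene features of the count tables, with 18 genes of complex I, 8 of complex III and its electron carrier cytochrome c, 10 of complex IV and 9 of complex V. Each gene was read in 2 places, at its own locus and in the features whose exons lie opposite to its exons on the other strand. There were 18 such features, opposite to 15 of the 45 genes.

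Poly-A RNA of cardiomyocytes from mouse heart, prepared by perfusion of the organ, was sequenced in 2 groups of 3 libraries. One group carried a knockdown of Acly (Acly-KD, n = 3) and the other was labelled wildtype (control, n = 3). ATP citrate lyase, the product of Acly, makes cytosolic acetyl-CoA from citrate. Per the series' design text the knockdown was made in MyH6-Cas9 mice, in which the nuclease Cas9 is driven by the promoter of the heart muscle myosin gene Myh6. Whether the control animals carried Cas9, how the guides were delivered, and the strain, age and number of animals are not given. Nothing says that the libraries of a group are separate animals, so the p-values measure the spread of these samples alone, possibly a technical one. The comparison asks how transcripts differ in these cells when Acly is reduced.

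The respiratory chain sits in the inner mitochondrial membrane. Complex I takes electrons from NADH, complex III passes them to cytochrome c, complex IV hands them to oxygen, and complex V (ATP synthase) uses the proton gradient that the first complexes build to make ATP. Most subunits are encoded in the nucleus and imported, a few are encoded by mitochondrial DNA, and heart muscle, which beats without rest, is among the tissues richest in these proteins.

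The depth was 271463 to 814765 reads in features per library, 2.81% to 3.07% of the uniquely aligned reads. Acly received 0, 0 and 0 reads in Acly-KD 1 to 3 and 1, 5 and 6 reads in control 1 to 3, all at its own locus, which makes this a limited check of the labels. The library kit keeps strand; with which strand option reads were counted is not given. Of the nuclear features, 18.0% had exons opposite to those of another gene, and these held 91.9% of the nuclear counts, a distribution like that of reads counted on the strand opposite to their own. On that view, reads of a gene's mRNA are found in the feature opposite to it, and reads at its own locus come from the other strand. All 12 markers of heart muscle cells passed the filter on low counts at their own loci (Myh6 had 22347 reads over the 6 libraries). Of the markers of other cells, 0 of 8 for fibroblasts passed, 1 of 8 for endothelium (Pecam1, 53 reads), 3 of 7 for smooth muscle and pericytes (Tagln, Rgs5 and Myh11, with 141, 94 and 68 reads) and 2 of 9 for immune and red blood cells (Csf1r, 325 reads, and Hbb-bs, 47). Ptprc and Adgre1, which mark leukocytes and macrophages, had 0 reads. All these are own-locus reads, with the limit just given. Fewer cells of a type and less RNA per cell cannot be told apart in such bulk samples.

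The windows through which mRNA of these genes could be read are short. The coding parts of 5 of them are printed. The values below count reads over whole features, so they may also rest on bases that are not printed. Pdzd9 shared 504 bases with Uqcrc2, of which 81 are printed, and Gm26631 shared 269 with Cox5a, of which 111 are printed. They come from the GENCODE M21 transcripts on mm10 (1 transcript of each gene), in the sense of the mRNA, with the bases shared with the opposite feature in capitals and up to 20 coding bases on each side in lower case. Ndufa9 shared 67 bases of exon 10 (chr6:126824936-126825002, minus strand) with 1700018A23Rik. Ndufs1 shared 146 coding bases of exon 11 (chr1:63157132-63157277, minus strand) and 102 of exon 12 (chr1:63156220-63156321) with Ino80dos. Uqcrc2 shared the last 81 coding bases (exon 14, chr7:120659021-120659101, plus strand) with Pdzd9, and Cox5a the last 111 coding bases (exon 4, chr9:57531669-57531779, plus strand) with Gm26631.
Ndufa9 exon 10: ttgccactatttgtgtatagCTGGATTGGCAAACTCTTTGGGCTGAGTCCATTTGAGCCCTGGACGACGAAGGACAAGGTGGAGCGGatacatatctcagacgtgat
Ndufs1 exon 11: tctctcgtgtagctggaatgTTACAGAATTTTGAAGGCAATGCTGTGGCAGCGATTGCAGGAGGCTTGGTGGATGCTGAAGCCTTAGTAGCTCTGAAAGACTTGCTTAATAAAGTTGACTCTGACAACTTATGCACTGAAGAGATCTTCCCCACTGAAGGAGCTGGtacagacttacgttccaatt
Ndufs1 exon 12: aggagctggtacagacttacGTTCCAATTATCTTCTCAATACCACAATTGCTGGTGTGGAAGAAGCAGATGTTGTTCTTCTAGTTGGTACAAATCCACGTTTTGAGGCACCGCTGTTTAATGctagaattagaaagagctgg
Uqcrc2 exon 14: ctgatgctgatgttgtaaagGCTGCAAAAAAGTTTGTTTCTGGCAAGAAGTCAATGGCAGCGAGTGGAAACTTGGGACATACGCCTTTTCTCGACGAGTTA
Cox5a exon 4: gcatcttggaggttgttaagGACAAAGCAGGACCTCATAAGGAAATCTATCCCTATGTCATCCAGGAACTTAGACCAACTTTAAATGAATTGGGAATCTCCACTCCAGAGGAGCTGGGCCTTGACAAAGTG

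None of the features opposite to respiratory chain genes passed the test between the groups. Of the 18 opposite features, 8 passed the filter on low counts and took most of their opposite-strand overlap from a listed gene, and they held 1135 to 42962 reads each over the 6 libraries. Together these 8 held 105955 reads, against 6371 reads at the own loci of all 45 genes. For 7 of the 8, read opposite to Cox5a, Cox4i1, Ndufs1, Ndufb5, Ndufa9, Atp5o and Uqcrb, the 95% intervals of the log2 fold change (Acly-KD over control) all lay between -0.49 and 0.42. The remaining one, opposite to Uqcrc2, had a value of 0.67, above zero. At an adjusted p under 0.05 (edgeR, quasi-likelihood, Benjamini-Hochberg), 0 of the 11 opposite features that passed the filter were called, as were 0 of all 2952 features tested (0%). At an unadjusted p under 0.05 there was 1 of 11, against 6.1% of all features, and DESeq2 and limma-voom also called 0.

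Complex I was read through 4 features. Ndufa9, an accessory subunit, was read in 1700018A23Rik (chr6:126822377-126825177), which held 2403, 2369 and 2195 CPM (reads per 1000000, scaled by TMM) in Acly-KD 1 to 3 and 2239, 2163 and 2079 CPM in control 1 to 3. The groups overlapped and the log2 fold change was 0.10 (95% interval -0.17 to 0.37, adjusted p = 0.964 in edgeR). Ndufs1, the largest core subunit, which carries iron-sulfur clusters, was read in Ino80dos, which held 3932, 3978 and 3610 CPM in Acly-KD and 4031, 3689 and 3637 CPM in control 1 to 3. Its libraries lay within a narrow band and the log2 fold change was 0.02 (interval -0.24 to 0.28, adjusted p = 0.980 in edgeR). Ndufb5, a subunit of the membrane arm, was read in Mrpl47 through 616 bases at its 5′ end. Mrpl47 held 2387, 2305 and 2517 CPM in Acly-KD 1 to 3 and 2618, 2390 and 2797 CPM in control 1 to 3. These groups overlapped, and the log2 fold change was -0.11 (interval -0.39 to 0.16, adjusted p = 0.961 in edgeR).

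The share of a listed gene in its opposite feature differed. Ino80dos shared 489 bases with Ndufs1 and 431 with Ino80d, and Mrpl47 shared 452 further bases with Actl6a, so that Ndufs1 and Ndufb5 had 53.2% and 57.7% of the overlap of their features. Ndufs3, another core subunit of complex I, had only 5.0% of the overlap of Kbtbd4, which shared 1657 bases with Ptpmt1. Kbtbd4 held 198, 225 and 171 CPM in Acly-KD 1 to 3 and 237, 161 and 211 CPM in control 1 to 3, with overlapping groups and a log2 fold change of -0.02 (interval -0.46 to 0.41). Those reads cannot be divided between Ndufs3 and Ptpmt1. Reads of a listed gene, of the other partner, and of a transcript antisense to the feature cannot be told apart in any of these counts.

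Complex III was read through Uqcrc2 and Uqcrb. Uqcrc2, a core protein of the complex, was read in Pdzd9 (chr7:120658731-120670343), which shared 504 bases with the 3′ end of Uqcrc2, 91.3% of its overlap. Pdzd9 held 540, 352 and 274 CPM in Acly-KD 1 to 3 and 299, 177 and 270 CPM in control 1 to 3. Acly-KD 1 was the highest library and control 2 the lowest, and Acly-KD 3 lay within the range of the controls. The means were 249 ± 63.4 CPM in control and 389 ± 137 CPM in Acly-KD (SD, n = 3 each). The log2 fold change of 0.67 had an interval of 0.08 to 1.25 (edgeR, adjusted p = 0.717). This was the opposite feature with an unadjusted p under 0.05. The value rested on single libraries: it was 0.35 without Acly-KD 1, and without Acly-KD 3 it was 0.95 and passed the test (adjusted p = 0.0376 in edgeR).

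Uqcrb, a subunit that helps bind ubiquinone, was read in Gm10767 through 50 bases near its 5′ end, 19 of them coding. Gm10767 held 2120, 2418 and 1977 CPM in Acly-KD 1 to 3 and 2116, 1801 and 2030 CPM in control 1 to 3. The groups overlapped, and the log2 fold change was 0.13 (interval -0.16 to 0.42, adjusted p = 0.959 in edgeR). Gm10767 also shared 33 bases with Mterf3.

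Complex IV was read through Cox5a and Cox4i1, nuclear subunits around the catalytic core. Cox5a was read in Gm26631 (chr9:57531287-57537629), the opposite feature with the most reads among the 18. It held 12597, 13027 and 10148 CPM in Acly-KD 1 to 3 and 13265, 11908 and 10924 CPM in control 1 to 3. Acly-KD 3 was lowest and the groups overlapped, with a log2 fold change of -0.01 (interval -0.30 to 0.27, adjusted p = 0.986 in edgeR), a value near zero whose sign changed with the scaling. Cox5a had 72.5% of the overlap of Gm26631, and Fam219b shared 102 bases with it.

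Cox4i1 was read in Emc8 (chr8:120653914-120668573) through 154 bases at its 5′ end. Emc8 held 4699, 3971 and 3965 CPM in Acly-KD 1 to 3 and 4482, 4488 and 4857 CPM in control 1 to 3, with overlapping groups and a log2 fold change of -0.13 (interval -0.40 to 0.14, adjusted p = 0.959 in edgeR). Cox6a2, the heart and muscle form of another subunit, shared the 70 bases at its 3′ end with Itgad, 12.5% of the overlap of that feature. Itgad held 8 to 18 reads per library, and its log2 fold change was 0.09 (interval -0.87 to 1.04), an interval too wide to separate the groups at this depth.

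Complex V was read through Atp5o, the subunit that ties the catalytic head to the stalk, in D430001F17Rik (chr16:91931237-91962915). That feature held 1916, 1893 and 1534 CPM in Acly-KD 1 to 3 and 2003, 1882 and 2199 CPM in control 1 to 3. Acly-KD 3 was lowest, the groups overlapped, and the log2 fold change was -0.19 (interval -0.49 to 0.11, adjusted p = 0.930 in edgeR). Atp5d, the delta subunit of complex V, had 22.7% of the overlap of Cbarp, where Stk11 shared 232 bases. Cbarp held 150, 144 and 160 CPM in Acly-KD 1 to 3 and 182, 181 and 226 CPM in control 1 to 3, so that all Acly-KD libraries lay below all controls. Its log2 fold change was -0.38 (interval -0.79 to 0.04, adjusted p = 0.865 in edgeR). It was 1 of 11 opposite features with Acly-KD below control in all libraries, against 5.56% of all features.

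**Figure D1:**
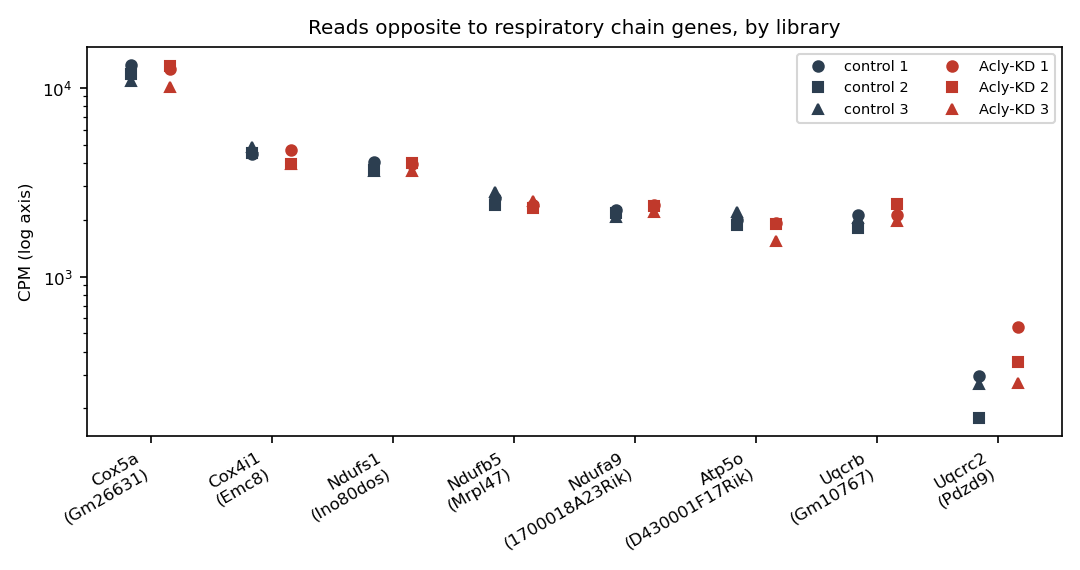
CPM (log axis) of the 8 features that passed the filter on low counts and lie mainly opposite to a listed gene, with the gene named first and the feature in brackets. Each symbol is 1 library (control dark, Acly-KD red); the groups overlap for all 8, and the spread is widest for Pdzd9, from 177 to 540 CPM.

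The other opposite features held few reads. Those opposite to Atp5f1 (Wdr77 and Gm42890) had 0 reads in all libraries, and Haus1, opposite to Atp5a1, had 1. Gm15976 (opposite to Atp5o), Tmco6 (Ndufa2), Vps13b (Cox6c) and Eef1b2 (Ndufs1) had 12, 15, 17 and 49 reads in all. The number of shared bases did not order the counts: Wdr77 shared 337 bases and had 0 reads, and 1700018A23Rik shared 67 bases and had 8180. The gene models the authors counted with are not given, and those used here are GENCODE M21.

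When the counts of each feature were given to the gene opposite to it and fitted again as mRNA, 1484 genes were tested and 4 listed genes were among them: Ndufa9, Uqcrc2, Cox4i1 and Atp5o. Their reads are those of 1700018A23Rik, Pdzd9, Emc8 and D430001F17Rik, scaled anew, so these are not further observations. By edgeR 0 of the 4 passed, where 5 of 1484 genes did (0.337%), 0.135% higher and 0.202% lower. At an unadjusted p under 0.05 there was 1 of the 4 (Uqcrc2), against 8.56% of all genes. Of the 4, 2 were below zero, against 49.9% of all genes, and their median log2 fold change was -0.04, beside 0.00 over all genes. Uqcrc2 read 472 ± 118 CPM in control and 718 ± 220 CPM in Acly-KD (SD, n = 3 each). Its log2 fold change was 0.64 (interval 0.13 to 1.16; edgeR, adjusted p = 0.396). Without Acly-KD 1 it was 0.37, and it passed without Acly-KD 3 (0.83, adjusted p = 0.0452) and with no filter on low counts (0.65, adjusted p = 0.0167).

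In this reading Atp5o lay at -0.22 (SE 0.12, adjusted p = 0.604 in edgeR) and Cox4i1 at -0.16 (SE 0.11, adjusted p = 0.725 in edgeR), each with all Acly-KD libraries below all controls. The same reads overlapped between the groups as D430001F17Rik and Emc8, so this order depends on the scaling. Atp5o read 3420, 3476 and 3042 CPM in Acly-KD 1 to 3 and 3839, 3622 and 4074 CPM in control 1 to 3. Cox4i1 read 8389, 7293 and 7863 CPM against 8593, 8636 and 9000 CPM. Groups stood apart in that direction for 6.6% of all genes tested, and in the other direction for 8.15% of them and for 0 of the 4. Ndufa9 lay at 0.08 (SE 0.11), with overlapping groups.

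Reads at the genes' own loci were few and differed more between libraries than between groups. The 45 genes had a median of 88 reads at their own locus over the 6 libraries, from 11 reads to the 662 of Atp5f1. Their sum was 23.2, 32.9 and 69.9 reads per 1000000 uniquely aligned reads in Acly-KD 1 to 3 and 69.1, 66.9 and 42.9 in control 1 to 3. Acly-KD 1 and 2 were lower than every control, and Acly-KD 3 was close to the highest control: above it on this scale and below it per 1000000 reads in features (2282 against 2317). The 4 complexes had the same order for the Acly-KD libraries, with 10.2, 13.9 and 28.9 reads per 1000000 uniquely aligned reads for complex V and 2.72, 3.88 and 10.9 for complex III in Acly-KD 1 to 3.

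The filter on low counts was passed by 35 of the 45 at their own loci. Ndufa1, Ndufa9, Ndufb3, Ndufb5, Ndufc2, Ndufs4, Ndufs7, Uqcrb, Cox5a and Cox7c did not pass, with 11 to 40 reads each. By edgeR 0 of the 35 were called (0% of all features), with 1 at an unadjusted p under 0.05 (6.1% of all features), and DESeq2 and limma-voom called 0. The tools differed before adjustment: an unadjusted p under 0.05 was reached by 1 of the 35 in DESeq2 and by 8 in limma-voom. By edgeR the log2 fold change was below zero for 29 of the 35, with a median of -0.43. In limma-voom 32 were below zero, with a median of -0.64. Over all 2952 features 54.4% were below zero with a median of -0.04, and over the 731 features with no opposite-strand exons 72.9% were below zero with a median of -0.28. With no filter, all 45 had values, of which 32 were below zero with a median of -0.28.

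**Figure D2:**
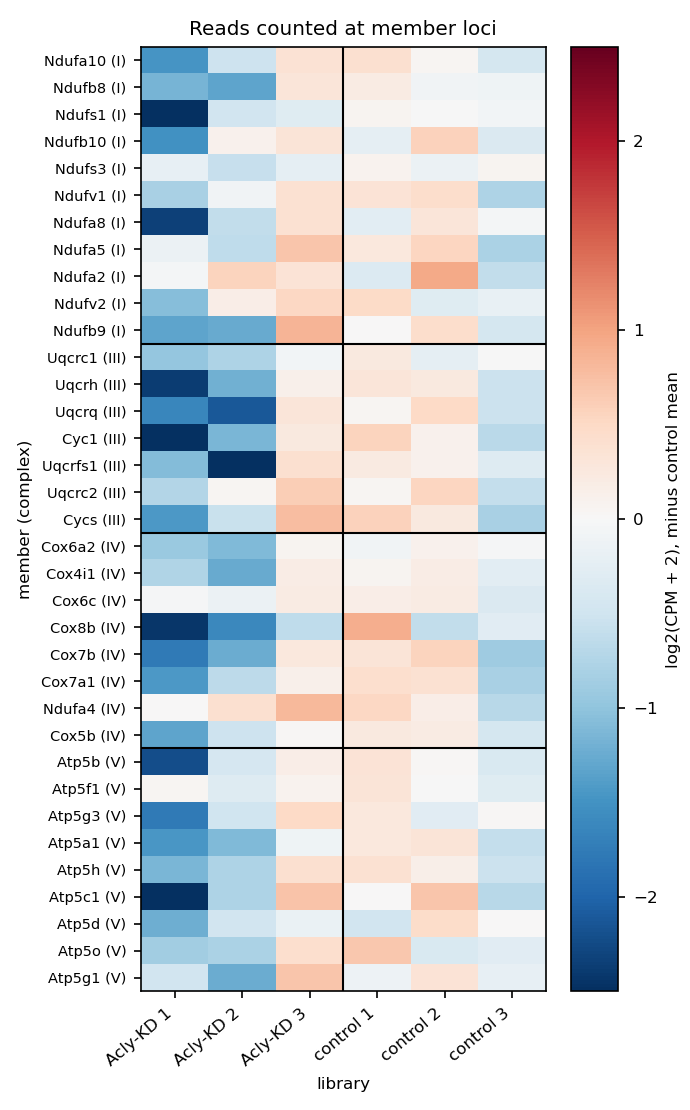
Reads at the own loci of the 35 genes that passed the filter, as log2(CPM + 2) minus the mean of the controls, by library (columns) and gene (rows, complex in brackets). Blue is below the control mean and red above; Acly-KD 1 has the lowest value for 23 of the 35 genes and Acly-KD 3 the highest for 13.

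The lowest values came mostly from Acly-KD 1 and 2. Acly-KD 1 lay below all controls for 30 of the 35 genes, Acly-KD 2 for 24 and Acly-KD 3 for 3. Control 3 was low as well, below both other controls for 26 of the 35. Below the control mean lay 34, 31 and 6 genes in Acly-KD 1 to 3 and 10, 9 and 33 in control 1 to 3. Acly-KD 1 was the lowest of the 6 libraries for 23 of the 35 genes, Acly-KD 2 for 8 and control 3 for 4. Acly-KD 3 was the highest for 13, control 1 for 12 and control 2 for 10. The median of the 35 genes, as log2 against the control mean, was -1.15, -0.61 and 0.30 in Acly-KD 1 to 3 and 0.24, 0.19 and -0.38 in control 1 to 3. The order of the Acly-KD libraries was not particular to these genes. Over 707 other features with no opposite-strand exons the medians were -0.80, -0.26 and 0.19 in Acly-KD 1 to 3. In control 1 to 3 they were 0.05, 0.11 and -0.09. Over all 2952 features tested the medians lay between -0.04 and 0.03. For the listed genes the median log2 fold change between groups was -0.05 without Acly-KD 1, -0.24 without Acly-KD 2 and -0.99 without Acly-KD 3. With Acly-KD 1 and 2 both left out, 9 of 40 genes were below zero and the median was 0.21.

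Reads at the own locus per mRNA read moved with these medians. Over 196 genes outside the respiratory chain, this ratio, as log2 against the control mean, had a median of -0.95, -0.33 and 0.23 in Acly-KD 1 to 3 and 0.14, 0.06 and -0.20 in control 1 to 3. The markers of heart muscle cells at their own loci had medians of -1.49, -0.49 and 0.30 and of 0.12, 0.17 and -0.23. There 12 of 12 had a log2 fold change below zero. Read as mRNA, 3 of these markers were tested and 0 were below zero, with log2 fold changes from 0.03 to 0.58. The part of the markers in the result was not tested. With the ratio as a term in the fit, 19 of the 35 respiratory chain genes were below zero and the median was -0.13. The ratio was itself lower in Acly-KD 1 and 2 than in every control, so this fit cannot fully tell ratio and group apart. The 8 features that passed the filter and lay mainly opposite to listed genes had medians from -0.06 to 0.10 in Acly-KD and from -0.07 to 0.07 in control.

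**Figure D3:**
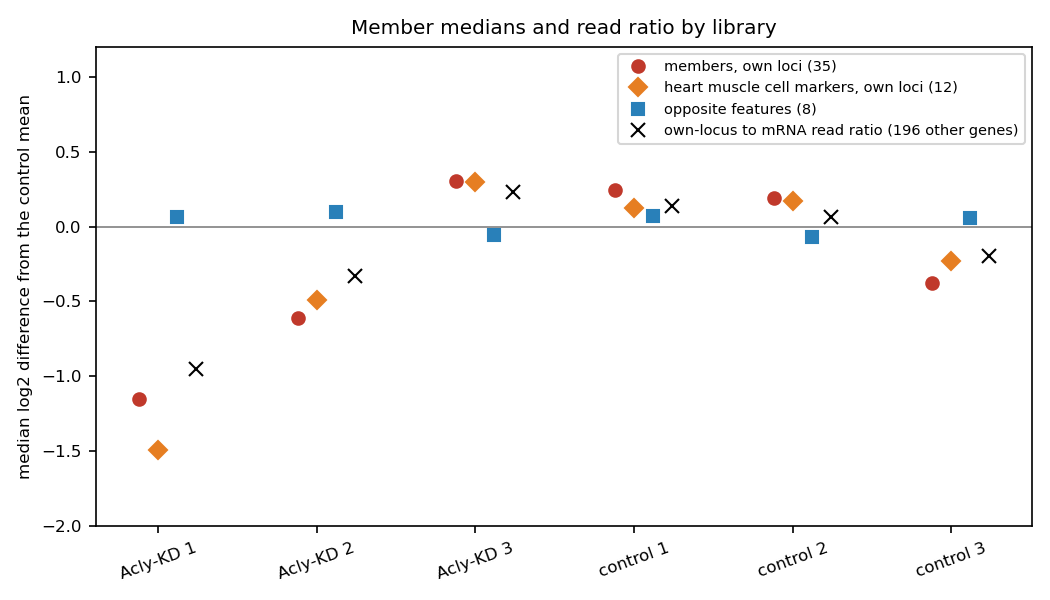
Median log2 difference from the control mean, by library, for the 35 genes at their own loci, 12 heart muscle cell markers at their own loci, the 8 opposite features, and the ratio of own-locus to mRNA reads in 196 other genes. The own-locus medians and the ratio are lowest in Acly-KD 1 and highest in Acly-KD 3, while the opposite features stay between -0.07 and 0.10.

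Own-locus and opposite reads were also set against each other within genes. For the 8 genes with such a feature opposite to them, the own loci together gave 0.226, 0.427 and 0.758 reads per 100 reads of the opposite feature in Acly-KD 1 to 3 and 0.704, 0.660 and 0.474 in control 1 to 3. Cox4i1 gave 0.686, 0.554 and 1.61 in Acly-KD and 1.30, 1.42 and 0.947 in control. For Ndufs1 the values were 0.156, 0.798 and 1.00 against 1.17, 1.22 and 1.19, with all controls above all Acly-KD libraries. Uqcrb, with 22 own-locus reads, had this order too, at 0, 0.202 and 0.253 against 1.03, 0.394 and 0.283. In the remaining genes of the 8 the groups overlapped. How often this order occurs in other genes was not counted. Cox5a, with 38 own-locus reads, gave 0.012, 0.112 and 0.197 in Acly-KD 1 to 3 and 0.055, 0.099 and 0.039 in control 1 to 3, with Acly-KD 2 and 3 above all controls. For Ndufb5 the highest of the 6 libraries was Acly-KD 2, at 0.530.

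In complex I, 8 of the 11 genes tested at their own loci were below zero (median -0.28). Ndufs1 had the lowest value, with 6.14, 31.8 and 36.2 CPM in Acly-KD 1 to 3 and 47.3, 45.0 and 43.1 CPM in control 1 to 3, a log2 fold change of -0.87 (interval -1.93 to 0.19, adjusted p = 0.902 in edgeR). Without Acly-KD 1, which held 4 reads, it was -0.38. The groups stood apart for Ndufs1 and for Ndufs3 (-0.32, interval -1.10 to 0.47). With Cox8b these were 3 of the 35, against 5.56% of all features and 4.79% of those with no opposite-strand exons. In the other direction there were 0 of 35, against 5.83% of all features. The highest value was that of Ndufv2, an iron-sulfur subunit of the NADH-binding module, at 0.08 (interval -1.19 to 1.35), with 6.14, 17.1 and 22.5 CPM in Acly-KD and 21.8, 11.8 and 12.9 CPM in control.

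The complex I genes with the most reads were the accessory subunits Ndufa10, Ndufb8 and Ndufb10. Ndufa10 had 30.7, 61.0 and 114 CPM in Acly-KD 1 to 3 and 117, 91.1 and 64.7 CPM in control 1 to 3. Ndufb8 had 38.4, 34.2 and 110 CPM in Acly-KD 1 to 3 and 102, 82.8 and 82.0 CPM in control 1 to 3. Ndufb10 had 13.8, 46.4 and 53.8 CPM in Acly-KD 1 to 3 and 36.4, 65.1 and 33.1 CPM in control 1 to 3. In each of the 3 genes Acly-KD 3 lay within or above the controls, and the log2 fold changes were -0.35, -0.48 and -0.28, with intervals that spanned zero.

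In complex III, 6 of 7 genes were below zero (median -0.59). Uqcrc1, the partner of Uqcrc2 in the core, had 55.3, 63.5 and 105 CPM in Acly-KD 1 to 3 and 131, 93.5 and 109 CPM in control 1 to 3, a log2 fold change of -0.53 (interval -1.14 to 0.08, adjusted p = 0.873 in edgeR). Uqcrh, the hinge protein beside cytochrome c1, had 18.4, 44.0 and 112 CPM against 127, 122 and 70.5 CPM, and its log2 fold change was -0.80 (interval -2.18 to 0.57, adjusted p = 0.935 in edgeR). Without Acly-KD 3 it was -1.77 and passed (adjusted p = 0.0254 in edgeR). Acly-KD 3 lay within the controls for both genes.

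Cyc1, the cytochrome c1 gene, had the lowest value of the complex, -0.83 (interval -2.70 to 1.03), with 0, 4 and 23 reads in Acly-KD 1 to 3 and 10, 22 and 10 in control 1 to 3. It was -0.21 without Acly-KD 1 and -2.49 without Acly-KD 3. Uqcrq, a small subunit, had 7.68, 4.88 and 35 CPM in Acly-KD and 29.1, 40.2 and 18.7 CPM in control, with Acly-KD 1 and 2 below all controls. At its own locus Uqcrc2 had 4 to 18 reads per library and the highest value of the complex, 0.01 (interval -1.25 to 1.27).

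In complex IV, 6 of 8 genes were below zero (median -0.54). Cox8b, which encodes a form of subunit 8 made in heart and muscle, had 4.61, 9.77 and 21.2 CPM in Acly-KD 1 to 3 and 65.5, 21.3 and 27.3 CPM in control 1 to 3. All Acly-KD libraries lay below all controls, by a small margin between Acly-KD 3 and control 2. Its log2 fold change of -1.49 (SE 0.61, interval -2.77 to -0.20) was the lowest of all 35 genes and the one with an unadjusted p under 0.05, and it did not pass (adjusted p = 0.687 in edgeR). Without control 1 it was -0.93 and without Acly-KD 3 it was -2.24.

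Cox6a2 had the highest counts in complex IV, with 41.4, 36.6 and 85.0 CPM in Acly-KD 1 to 3 and 76.5, 87.6 and 79.1 CPM in control 1 to 3 (log2 fold change -0.54, interval -1.26 to 0.17). Cox4i1 had 32.2, 22.0 and 63.8 CPM in Acly-KD 1 to 3 and 58.3, 63.9 and 46.0 CPM in control 1 to 3 (-0.46, interval -1.29 to 0.38). In both genes Acly-KD 1 and 2 lay below all controls and Acly-KD 3 among them. Cox6c varied least of these, from 37.4 to 56.8 CPM over the 6 libraries (0.01, interval -0.69 to 0.72). Ndufa4, first described with complex I and later placed in complex IV, had the highest value of all 35 genes, 0.48 (interval -0.56 to 1.52), with 19.96, 26.9 and 36.2 CPM in Acly-KD and 29.1, 22.5 and 11.5 CPM in control.

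In complex V, 9 of 9 genes were below zero (median -0.33) and 0 had groups that stood apart. Atp5a1, the alpha subunit of the catalytic head, had the lowest value, with 33.8, 44.0 and 90.0 CPM in Acly-KD 1 to 3 and 117, 122 and 63.3 CPM in control 1 to 3, a log2 fold change of -0.80 (interval -1.61 to 0.01, adjusted p = 0.838 in edgeR). Atp5b, the beta subunit that makes ATP, had 41.4, 149 and 226 CPM against 255, 206 and 154 CPM, and a log2 fold change of -0.53 (interval -1.95 to 0.89, adjusted p = 0.961 in edgeR). Acly-KD 1 stood far below the controls for Atp5b, and without it the value was -0.07; without Acly-KD 3 it was -1.11.

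Atp5g3, 1 of the genes for the membrane ring, had 35.3, 87.9 and 176 CPM in Acly-KD 1 to 3 and 149, 102 and 128 CPM in control 1 to 3, with Acly-KD 3 the highest of all libraries. Atp5f1, the b subunit of the stalk, had the most reads of the 45 genes and the value nearest to zero in complex V, -0.04 (interval -0.50 to 0.42), with 190, 147 and 196 CPM in Acly-KD and 229, 183 and 148 CPM in control. It did not share the low value in Acly-KD 1. The other genes of the complex lay between -0.70 (Atp5d) and -0.11 (Atp5g1). Several subunits have near-identical copies elsewhere in the genome, and reads that align to more than 1 place stand in a row of their own in the count tables, so their levels are uncertain.

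**Figure D4:**
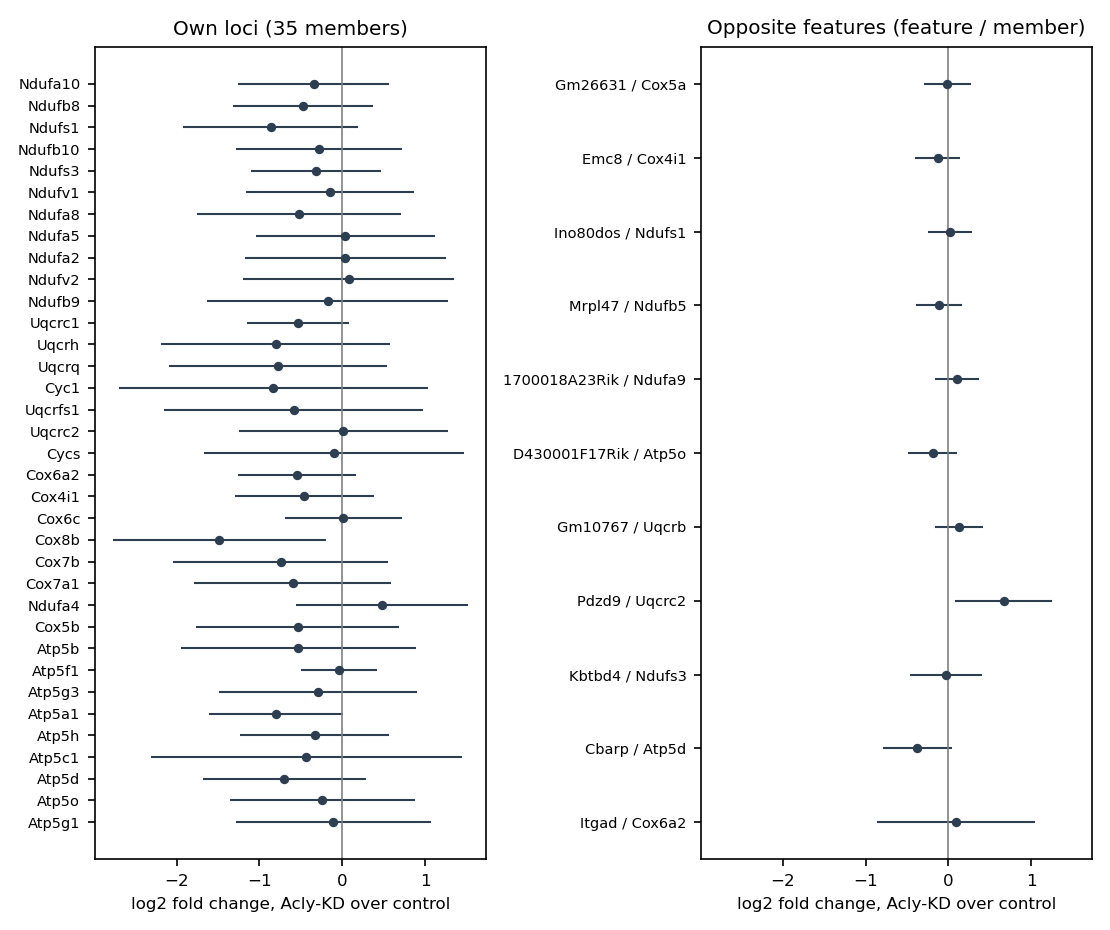
Log2 fold change (Acly-KD over control) with its 95% interval from edgeR for the 35 genes at their own loci (left, by complex) and the 11 opposite features (right, feature and gene). Most intervals at the own loci are wider than those of the opposite features; of all 46, those of Cox8b and Pdzd9 do not reach zero.

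The remaining genes of the pathway gave 0 calls in either direction by edgeR. At an unadjusted p under 0.05 there were, as deposited, 4 of the 10 genes of mitochondrial DNA (3 higher, 1 lower) and 0 of the other genes tested, against 6.1% of all features. As mRNA there was 1 (Ndufb2), against 8.56% of all genes. Of the other subunits as deposited, 8 of 18 of complex I, 2 of 4 of complex II, 2 of 2 of complex III, 1 of 7 of complex IV and 5 of 7 of complex V were tested, with 6, 2, 2, 1 and 4 below zero. Ndufa13 of complex I lay at -0.89 and Atp5k of complex V at -0.58, with adjusted p in edgeR of 0.865 and 0.908. Read as mRNA, Ndufb2 of complex I had 1206, 1260 and 2244 CPM in Acly-KD 1 to 3 and 2436, 2714 and 2217 CPM in control 1 to 3. Its groups overlapped, with a log2 fold change of -0.64 (adjusted p = 0.473 in edgeR). Atp5j of complex V lay at -0.68 (adjusted p = 0.587 in edgeR). Of 42 assembly factors, 5 were tested in each reading and 0 passed; Cox11, which inserts copper into complex IV, lay at 0.34 as mRNA (adjusted p = 0.592 in edgeR).

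Most features of subunits that mitochondrial DNA encodes were above zero with TMM scaling. Of 13, 10 were tested as deposited and 8 were above zero, with a median of 0.38. These too are own-locus reads, so on the strand view given above they may not come from the mRNAs of these genes. Reads were very uneven: mt-Nd6 held 65889 to 220693 per library and mt-Co3 held 4 to 19. For mt-Nd6 the log2 fold change was 0.24 (interval -0.07 to 0.55), with overlapping groups. mt-Nd5, a proton-pumping subunit of complex I, lay at 0.51 and mt-Nd3 at 1.00, with adjusted p in edgeR of 0.457 and 0.659. For these 2 of 10 all Acly-KD libraries lay above all controls, against 5.83% of all features. mt-Co3, a core subunit of complex IV, had the lowest value of the 10, -1.36 (interval -2.53 to -0.20, adjusted p = 0.687 in edgeR). It had 4, 5 and 8 reads in Acly-KD 1 to 3 and 8, 15 and 19 in control 1 to 3, and in CPM all Acly-KD libraries lay below all controls. mt-Atp8 of complex V lay at -0.14. mt-Nd6, mt-Co3 and mt-Atp8 were named after their values were seen. The difference between the mitochondrial and the nuclear genes was not tested.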

How the data were processed

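The authors deposited raw read counts for each gene. Per the submitters' processing notes, the build was mm10 and the tools included TopHat2 and HTSeq, with no versions. Rows that name no gene took 97.4% to 97.7% of the entries of a library and stayed out of the tests. Libraries were grouped by their titles, and within groups no library repeated another (chi-square per degree of freedom 3.43 to 10.1). Pairs across groups were not compared in this way. Features were matched by identifier to GENCODE M21 (45229 of 46078), and exonic bases shared between strands were counted in Python 3.11.15.

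Counts were tested across all features with edgeR 4.0.16 in R 4.3.3 (TMM scaling, robust quasi-likelihood, filterByExpr at a count of 10, Benjamini-Hochberg adjustment at 0.05). In the reading of mRNA a nuclear feature's counts went to a gene opposite to it that held 80% or more of the overlap and 50 or more bases, provided the gene counted less itself or was missing from the tables (3015 genes). The own-locus ratio used genes with at least 30 reads in both places, a pseudocount of 0.5, and own-locus reads of at most 10% of the opposite reads. The members and gene lists were chosen with earlier results of these data known. Named with values were genes tested as mRNA, tested opposite features with at least 50 shared bases, and in each complex the 3 with the most reads, the highest and lowest fold change and any with an unadjusted p under 0.05, plus up to 2 of each other list; Ndufs3, Atp5d and Atp5g1 at their own loci fall outside this rule: they, and the 10% limit of the ratio, were chosen once the values were known. The test was run on simulated counts first. Alternatives were DESeq2 1.42.0, limma-voom (limma 3.58.1), other scalings and filters, a replicate block, a ratio term, subsets of features, other assignment rules and each library left out.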

Additional observations from a re-analysis of the deposited data

How the results depend on the processing

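Depth limits the own loci, with 11 to 662 reads per gene over all libraries. The calls among the respiratory chain genes were 0 under 17 of 18 alternatives at the own loci, 16 of 17 in the opposite features and 16 of 18 as mRNA. Leaving out 1 library gave 0 to 1 calls in each, the 1 being Uqcrh, Pdzd9 and Uqcrc2, each without Acly-KD 3. The reads of Pdzd9 and of Uqcrc2 as mRNA are the same. Without Acly-KD 3 calls rose in general, to 69 of 2998 features as deposited and 23 of 1506 genes as mRNA. With no low-count filter 1 gene was called as mRNA (Uqcrc2), among 31 of 2806. The own-locus median ran from -0.99 to -0.05 with 1 library left out and was 0.21 without Acly-KD 1 and 2, which was added with the data in view and in which the lone Acly-KD library is assumed to vary like the controls. The median as mRNA was 0.0085 with library totals, -0.12 with libraries scaled by their uniquely aligned reads and -0.22 with at least 200 bases shared with a single gene, where 1 gene was left; the cause was not tested for the first, and the scale by uniquely aligned reads takes the median of all features from -0.04 to -0.14 as deposited.

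Values near zero changed sign. With uniquely aligned reads as library size these were Ndufv2 (-0.0066), Uqcrc2 (-0.078) and Cox6c (-0.088) at their own loci, Itgad (-0.013), 1700018A23Rik (-0.0027) and Ino80dos (-0.086), and Ndufa9 as mRNA (-0.0024). With library totals they were Uqcrc2 (-0.049), Cox6c (-0.050) and Ino80dos (-0.047). With DESeq2's size factors they were Gm26631 (0.026) and Kbtbd4 (0.013), and with its Wald test the same pair (0.026 and 0.013). With limma-voom they were Uqcrc2 (-0.10), Cox6c (-0.049), Gm26631 (0.049) and Kbtbd4 (0.12). With no filter they were Atp5f1 (0.061), Gm26631 (0.098) and Kbtbd4 (0.071), and with the stricter filter Cox6c (-0.0049) and Ino80dos (-0.00041). Without mitochondrial features they were Atp5f1 (0.0018), Gm26631 (0.031) and Kbtbd4 (0.017). With the ratio term they were Ndufa10 (0.021), Ndufb10 (0.027), Atp5f1 (0.027), Atp5g3 (0.014) and Ino80dos (-0.0026).

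Without Acly-KD 1 or Acly-KD 3 most named own-locus values below zero moved by over 1.5 times, towards zero without the first and away from it without the last, for example from -0.20 to -1.19 for Ndufb8, -0.40 to -2.08 for Uqcrq and -0.29 to -0.94 for Cox4i1. With 1 library left out the ranges that crossed zero were -0.94 to 0.032 for Ndufa10, -0.67 to 0.16 for Ndufb10, -0.35 to 0.48 for Ndufv2, -0.30 to 0.34 for Uqcrc2, -0.17 to 0.19 for Cox6c, -0.19 to 0.16 for Atp5f1 and -1.02 to 0.14 for Atp5g3 at their own loci, and -0.073 to 0.15 for Gm26631, -0.016 to 0.28 for Itgad, -0.0029 to 0.12 for Ino80dos and -0.14 to 0.14 for Kbtbd4. The replicate numbers are shared only as numbers: the deviations of same-numbered libraries had correlations of -0.07, -0.02 and -0.18 as deposited and -0.02, -0.01 and -0.05 as mRNA. With the replicate number as a block 0 genes were called in each reading and the own-locus median was -0.55.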
